A study of Mus musculus with 24 samples.

Results

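The genes described here encode core splicing factors and the RNA-binding proteins that work beside them. They are all mouse genes whose symbol begins with Hnrnp, Srsf, Sf3a, Sf3b, U2af or Snrp. Values came from probe sets assigned to a single gene, and where a gene had several, the one with the highest mean over all arrays was kept. This gave 49 of the 19351 genes measured: 17 hnRNP genes, 10 SR protein genes, 3 U2AF genes, 9 SF3a or SF3b genes and 10 genes of snRNP proteins. Another 6 symbols of the rule, Hnrnpa1, Hnrnpa1l2-ps2, Hnrnpa3, Hnrnph3, Snrpf and Snrpn, lay only on probe sets that are shared with other genes, and Srsf7 had no single-gene probe set in the annotation, so none of these has a value here. No filter on low values was applied, and every one of the 49 genes entered each comparison.

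RNA came from the developing diaphragm of C57BL/6J mouse embryos, with 8 samples at each of the stages E11.5, E12.5 and E16.5, named by embryonic day, and 1 Affymetrix Mouse Gene 1.0 ST array per sample. At E11.5 and E12.5 the tissue was the pleuroperitoneal folds, paired ridges from which the diaphragm is built, and at E16.5 it was the muscularised diaphragm. The labels name no mutation and no treatment, so the stages differ by age and tissue. Tissue was cut by laser from transverse sections at E11.5 and E12.5 and from sagittal sections at E16.5, so the plane of section and the last stage cannot be told apart. The labels do not say which embryo, or how many, supplied a sample, and the p-values therefore measure the spread between samples, part of which may be technical.

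Introns are removed from messenger RNA precursors by the spliceosome, which assembles anew on each intron from small nuclear ribonucleoproteins (snRNPs). In most snRNPs a ring of Sm proteins holds a small nuclear RNA, together with proteins particular to that snRNP. U2AF marks the end of the intron and helps the U2 snRNP, with its SF3a and SF3b subcomplexes, to settle on the branch site. SR proteins, which carry a domain rich in arginine and serine, mostly bind exons and recruit the machinery, while heterogeneous nuclear ribonucleoproteins (hnRNPs) coat the transcript and often oppose or redirect splice site choice. These proteins are needed in all cells, and in developing muscle the balance among them is known to shape the many alternative exons of muscle genes.

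Values are log2 intensities, so that a difference of 1 is a 2-fold difference, and changes are given as the later minus the earlier stage with the standard error from limma. Intensities of different probe sets are not on a common scale, so a rank among genes says how bright a probe set is and not how abundant its RNA is, and of a difference between probe sets only its change between stages is read. On the E12.5 mean, 47 of the 49 genes lay above the upper quartile of all genes. The other 2, Hnrnpa0 and Srsf12, were dim, and Srsf12 was the only one of the 49 with an array below that array's lower quartile, which was 1 array at E16.5. No gene of the 49 was among the 20 brightest genes of any array.

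Between E11.5 and E12.5 none of the 49 splicing factor genes passed the test in either direction. Among all genes 0.388% passed it, 0.331% being higher at E12.5 and 0.0568% lower, so that no call among 49 is close to the background. With arrays centred on the 75th percentile, 33 of all genes were higher at E12.5 and 31 lower, against 64 higher and 11 lower on the values as deposited. At an unadjusted p under 0.05, 2 of the 49 genes were higher and 1 was lower at E12.5, beside 6.27% of all genes higher and 8.14% lower, which is close to the background. The median change of the 49 was -0.01, beside -0.03 over all genes. The changes ran from -0.23 ± 0.095 for Sf3a1 (adjusted p = 0.281) to 0.33 ± 0.22 for Sf3b6 (adjusted p = 0.510), both of which encode subunits of the U2 snRNP. U2af1, the small subunit of U2AF, had a change of 0.30 ± 0.10 (adjusted p = 0.199), with E12.5 and E11.5 arrays that overlapped.

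Between E12.5 and E16.5 the picture was one of a broad and modest fall. At E16.5, 44 of the 49 genes were lower than at E12.5 and 0 were higher, while among all 19351 genes 15.6% were lower, 27.1% passed in either direction and 2223 genes were higher. The share of the splicing factor genes that fell was 89.8%. Their median change was -0.49, beside -0.02 over all genes, and 48 of the 49 changes were below 0. For 25 of the 49 genes the 8 E16.5 arrays all lay below the 8 E12.5 arrays, which was so for 5.4% of all genes. The size of the fall was small: it reached 2-fold in 1 gene, Snrpa1, and 1.76% of all genes fell by that much. In bulk tissue fewer cells of a type and less RNA per cell cannot be told apart. A fall is read here as relative to the other RNAs of the same sample. Whether the arrays of all stages were scaled together is not given in the sources used here. The quartiles of the arrays were not equal, so a common distribution over the stages is not established.

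**Figure D1:**
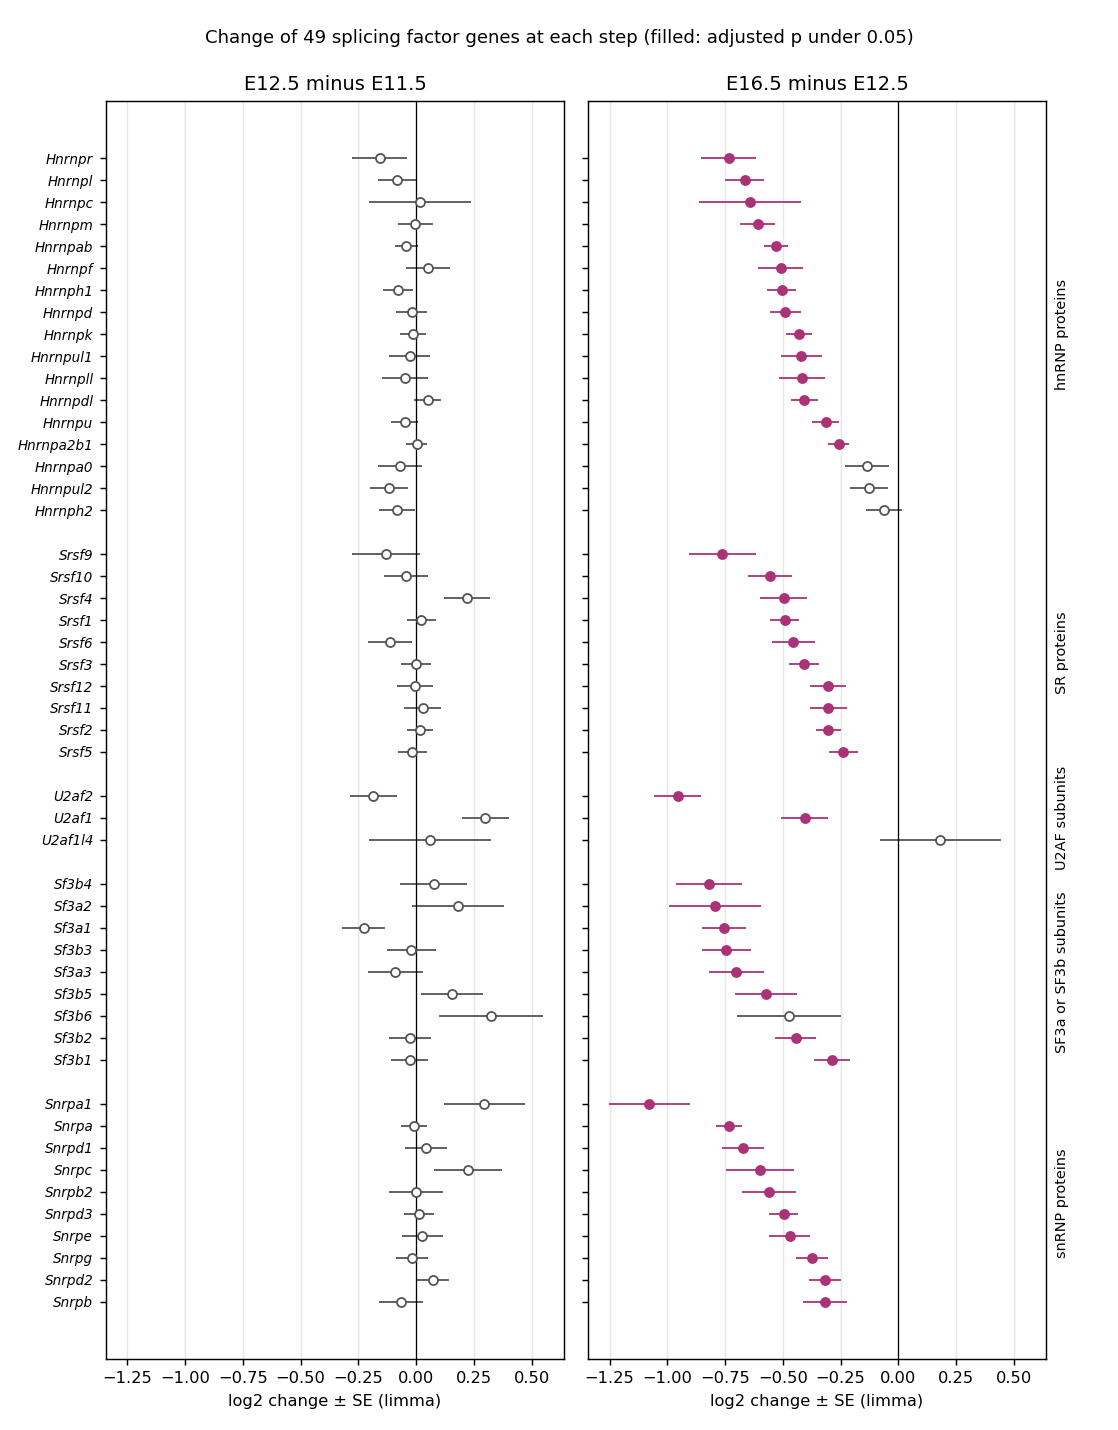
Log2 change of each of the 49 splicing factor genes (rows, grouped by role and ordered by the later change) from E11.5 to E12.5 on the left and from E12.5 to E16.5 on the right, as limma estimates with standard errors over 8 arrays a stage. Filled points have an adjusted p under 0.05: there are 0 on the left and 44 on the right, all of them below 0.

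The fall was spread over every role. At E16.5, relative to E12.5, 10 of 10 snRNP genes, 10 of 10 SR protein genes, 8 of 9 SF3a or SF3b genes, 14 of 17 hnRNP genes and 2 of 3 U2AF genes were lower. The median change was -0.53 for the snRNP genes, -0.70 for the SF3a and SF3b genes, -0.40 for U2AF, -0.43 for the SR proteins and -0.43 for the hnRNPs. Among bright genes in general the share was smaller: of the 658 genes of all kinds with a mean log2 value of 11 or more, 38.8% were lower at E16.5 than at E12.5, 20.4% were higher, and their median change was -0.10. The 24 splicing factor genes in that range were lower in 95.8% of cases, with a median change of -0.45.

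**Figure D2:**
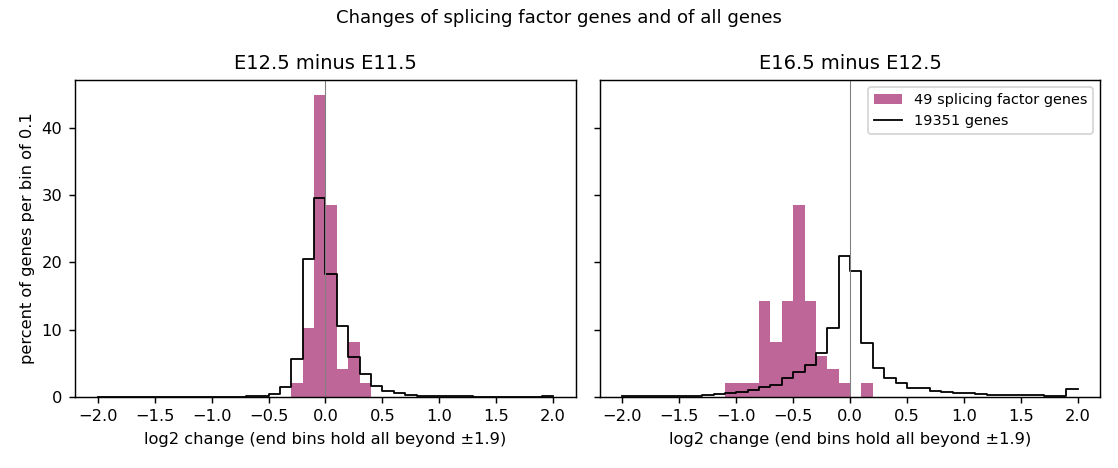
Share of genes (percent, vertical axis) in bins of log2 change (horizontal axis) for the 49 splicing factor genes (bars) and all 19351 genes (line), E12.5 minus E11.5 on the left and E16.5 minus E12.5 on the right. The medians of the 49 and of all genes were -0.01 and -0.03 on the left, and -0.49 and -0.02 on the right.

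Among the snRNP proteins the largest fall was that of Snrpa1, which encodes the A′ protein of the U2 snRNP. Its values were 9.16 to 10.40 with a median of 9.78 at E16.5, against 10.56 to 11.31 with a median of 10.93 at E12.5. The stages did not overlap, and the change was -1.08 ± 0.18 (adjusted p = 3.5e-05), a level 2.11-fold lower at E16.5. Snrpa, which encodes the A protein of the U1 snRNP, had 10.18 to 10.41 with a median of 10.25 at E16.5, against 10.83 to 11.14 with a median of 11.03 at E12.5. All its E16.5 arrays were low and close to each other, and its change of -0.73 ± 0.057 had the smallest adjusted p of the 49 genes (3.06e-10). Snrpb2, the close relative of Snrpa that belongs to the U2 snRNP, was 0.56 lower in the mean (-0.56 ± 0.12, adjusted p = 0.000618), with overlapping arrays. Snrpc, the C protein of the U1 snRNP, which helps U1 to hold the start of the intron, fell by 0.60 (SE 0.15, adjusted p = 0.00298).

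The Sm ring that all these particles share was measured in 6 of its genes, Snrpb, Snrpd1, Snrpd2, Snrpd3, Snrpe and Snrpg, and each was lower at E16.5 than at E12.5. Snrpd1 had the largest change, with 11.11 to 11.74 and a median of 11.47 at E16.5, against 11.99 to 12.28 and a median of 12.16 at E12.5. These values did not overlap, and the change was -0.67 ± 0.090 (adjusted p = 2.32e-06). Snrpd3 fell by 0.50 (SE 0.064, adjusted p = 1.31e-06), Snrpe by 0.47 (SE 0.088, adjusted p = 0.000202) and Snrpg by 0.37 (SE 0.070, adjusted p = 0.000187), and for these 3 genes too the stages did not overlap. Snrpg was very even at E12.5, where its 8 arrays lay between 12.63 and 12.69. Snrpb and Snrpd2 had the smallest changes of the ring, both -0.32, with overlapping arrays (adjusted p = 0.0122 and 0.00104).

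Of the U2AF genes, U2af2 and U2af1 fell. U2af2 encodes the large subunit, which binds the pyrimidine-rich stretch near the end of the intron. Its values were 9.51 to 10.03 with a median of 9.84 at E11.5, 9.25 to 9.88 with a median of 9.68 at E12.5, and 8.18 to 8.93 with a median of 8.71 at E16.5. Every E16.5 array lay below all earlier ones, and the change was -0.95 ± 0.10 (adjusted p = 7.41e-08) relative to E12.5 and -1.14 ± 0.10 (adjusted p = 2.57e-09) relative to E11.5. U2af1, the small subunit, which reads the last bases of the intron, had 11.40 to 12.10 with a median of 11.56 at E16.5, against 11.89 to 12.18 with a median of 12.04 at E12.5. The stages overlapped, and the gene fell by 0.40 (SE 0.10, adjusted p = 0.00375). Against E11.5, where U2af1 had 11.33 to 12.15 with a median of 11.77, its change was -0.11 ± 0.10 (adjusted p = 0.450), and the mean over its 2 probe sets gave -0.25 (adjusted p = 0.00772). U2af1l4, a relative of the small subunit, was the only gene of the 49 with a positive change relative to E12.5, 0.18 ± 0.26 (adjusted p = 0.694), and it also had the widest spread of the 49 at E11.5, with an SD of 0.856 and values of 7.35 to 10.16.

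The SF3a and SF3b subunits had the largest median fall of the roles. Sf3b4, an RNA-binding subunit of SF3b, had 7.99 to 9.08 with a median of 8.43 at E16.5, against 9.15 to 9.41 with a median of 9.26 at E12.5. The E12.5 arrays were close together and all above E16.5, and the change was -0.82 ± 0.14 (adjusted p = 8.55e-05). The other probe set of Sf3b4 had a smaller difference, -0.36, untested, and its stages overlapped. The size of the Sf3b4 fall thus depends on the probe set. The subunits of SF3a, which joins the U2 snRNP as a trimer, all fell. Sf3a2 changed by -0.79 ± 0.20 (adjusted p = 0.00361), with 8.24 to 9.31 and a median of 8.89 at E16.5, against 9.29 to 9.97 and a median of 9.63 at E12.5, and it was the only SF3a gene whose stages overlapped. Sf3a1 had 8.57 to 9.22 with a median of 8.98 at E16.5, against 9.57 to 9.92 with a median of 9.72 at E12.5, a change of -0.76 ± 0.095 (adjusted p = 9.05e-07). Sf3a3 had 9.44 to 10.00 with a median of 9.81 at E16.5, against 10.29 to 10.73 with a median of 10.48 at E12.5, a change of -0.70 ± 0.12 (adjusted p = 5.69e-05).

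Within SF3b, Sf3b3, a large scaffold subunit, had 9.45 to 10.15 with a median of 9.82 at E16.5, against 10.16 to 10.81 with a median of 10.56 at E12.5, and its change was -0.74 ± 0.11 (adjusted p = 5.64e-06). The highest E16.5 array and the lowest E12.5 array of Sf3b3 almost touched without overlapping. Sf3b5, a small subunit, and Sf3b2, the partner of Sf3b4, fell by 0.57 (SE 0.14, adjusted p = 0.00205) and 0.44 (SE 0.091, adjusted p = 0.000488), with overlapping arrays. The smallest fall of the group was that of Sf3b1, the large subunit that clamps the branch site and is mutated in human myelodysplastic syndromes, at -0.29 ± 0.080 (adjusted p = 0.0079). Sf3b6, which lies next to the branch site, did not pass the test, with 8.64 to 9.38 and a median of 9.10 at E16.5, against 9.03 to 9.85 and a median of 9.58 at E12.5 (-0.47 ± 0.22, adjusted p = 0.130). Without E11.5 replicate 1, where Sf3b6 had its lowest value of 7.64, the same change had an adjusted p of 0.0202.

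Promoters of the 49 genes were read from the RefSeq promoter table (GRCm38.p6), which holds the 250 bases before and 50 after a gene's start. It has 57 promoters for 42 of the 49 genes, with a median GC content of 61.0%, beside 52.7% over all promoters of the table. Letters of an ETS-family binding motif, CCGGAAG on either strand, stood in 20 of these 57 promoters (35.1%, 15 genes), beside 8.86% of all 32851 promoters of the table. Among other genes measured here the share was 12.0%, and among other genes with a mean log2 value of 10 or more it was 19.5%. The SP1 letters GGGCGG, which can overlap other motifs, stood in 71.9% of the splicing factor promoters, beside 35.7% of all promoters and 66.4% of those of the other genes at that level. For the NRF1 motif, the YY1 motif, the CRE letters TGACGTCA and the TATA letters TATAAA, searched on both strands too, the shares were 1.75%, 1.75%, 3.51% and 10.5%, beside 0.971%, 0.633%, 1.79% and 13.6% of all promoters. Among the other genes with a mean log2 value of 10 or more these shares were 3.66%, 1.92%, 3.42% and 7.01%, so that the order against the 49 genes turned for NRF1, YY1 and TATA, and with 1 to 6 promoters of the 49 genes behind each share no order is read from them. A match of letters is a description and not a bound site.

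Of the 10 genes with the largest fall from E12.5 to E16.5, 8 have a promoter in the table, and those of Sf3a1, Sf3a2, Sf3a3 and Sf3b3 hold the ETS letters. They are shown because they carry the letters and belong to the same U2 snRNP subcomplexes: the 250 bases before the start, 5′ to 3′ on the gene's own strand, with CCGGAAG or its reverse complement CTTCCGG in capitals. Sf3a2 lies on the + strand at chr10:80798485-80798734, Sf3a1 on the + strand at chr11:4160104-4160353, Sf3a3 on the + strand at chr4:124714611-124714860 and Sf3b3 on the - strand at chr8:110846804-110847053. In Sf3a1 the letters end directly at the start, in Sf3a2 they end 69 bases before it, in Sf3a3 83 bases and in Sf3b3 222 bases.
Sf3a2: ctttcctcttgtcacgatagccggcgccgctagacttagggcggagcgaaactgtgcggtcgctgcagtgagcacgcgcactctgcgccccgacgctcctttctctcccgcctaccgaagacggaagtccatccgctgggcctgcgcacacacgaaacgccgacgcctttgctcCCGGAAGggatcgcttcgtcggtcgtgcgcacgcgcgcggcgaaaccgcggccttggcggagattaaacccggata
Sf3a1: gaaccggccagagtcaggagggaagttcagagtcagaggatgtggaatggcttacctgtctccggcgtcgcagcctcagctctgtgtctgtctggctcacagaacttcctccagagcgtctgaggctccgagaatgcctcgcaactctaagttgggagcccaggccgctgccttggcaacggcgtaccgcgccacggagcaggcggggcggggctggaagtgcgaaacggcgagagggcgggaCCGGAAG
Sf3a3: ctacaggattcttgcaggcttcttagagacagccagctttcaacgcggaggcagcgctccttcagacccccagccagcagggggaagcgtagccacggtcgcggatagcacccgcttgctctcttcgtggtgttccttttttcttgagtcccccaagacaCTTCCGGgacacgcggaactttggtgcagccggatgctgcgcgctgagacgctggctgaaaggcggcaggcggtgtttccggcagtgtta
Sf3b3: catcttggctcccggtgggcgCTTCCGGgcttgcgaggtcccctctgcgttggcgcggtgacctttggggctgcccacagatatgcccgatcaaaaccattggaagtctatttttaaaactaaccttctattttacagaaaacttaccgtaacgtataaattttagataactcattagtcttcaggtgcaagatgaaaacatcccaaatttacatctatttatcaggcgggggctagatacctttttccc
The 4 windows differ widely in base composition, with 65.2%, 64.0%, 60.4% and 45.6% GC in the order printed. The other promoters in the table of genes with the largest falls, those of Snrpa1, Srsf9, Hnrnpr and Snrpa, do not hold these letters within the windows read.

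All 10 SR protein genes were lower at E16.5 than at E12.5. Srsf9 had the largest change, with 8.28 to 9.49 and a median of 9.10 at E16.5, against 9.35 to 10.06 and a median of 9.85 at E12.5. Its stages overlapped, and the change was -0.76 ± 0.15 (adjusted p = 0.000256). Its close relative Srsf1, the SR protein first known as a splicing factor and as a regulator of alternative splicing, was less variable, with 10.89 to 11.22 and a median of 11.10 at E16.5, against 11.53 to 11.68 and a median of 11.57 at E12.5. All E16.5 values of Srsf1 lay below all earlier ones, and the change was -0.49 ± 0.062 (adjusted p = 1.07e-06). Srsf10, which represses splicing when it is dephosphorylated, fell by 0.56 (SE 0.094, adjusted p = 6.02e-05), and Srsf3, the smallest SR protein, by 0.41 (SE 0.065, adjusted p = 2.69e-05), both with stages that did not overlap. The other probe sets of Srsf3 had differences of -0.7 and 0.03, untested, and their stages overlapped. Srsf4 and Srsf6, which are alike in domain structure, fell by 0.50 (SE 0.10, adjusted p = 0.00043) and 0.45 (SE 0.093, adjusted p = 0.000527). On the chosen probe sets the smallest changes were -0.30 for Srsf2, Srsf11 and Srsf12 and -0.24 ± 0.062 for Srsf5 (adjusted p = 0.00473). Of these 4 genes, Srsf2 was the only one whose E16.5 arrays, 11.53 to 11.84, did not overlap those of E12.5, 11.90 to 12.05. The other probe set of Srsf5 had a larger difference, -0.49, untested, and the mean over its probe sets gave -0.36.

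Among the hnRNPs, 14 of 17 genes fell. Hnrnpr, a relative of the RNA-binding protein Syncrip, had the largest change, with 8.95 to 9.85 and a median of 9.54 at E16.5, against 9.80 to 10.52 and a median of 10.26 at E12.5. The 2 stages overlapped only at their edges, and the change was -0.73 ± 0.12 (adjusted p = 3.13e-05). Hnrnpl, which binds CA-rich RNA, had 10.17 to 10.66 with a median of 10.44 at E16.5, against 10.95 to 11.29 with a median of 11.15 at E12.5, a change of -0.66 ± 0.084 (adjusted p = 1.07e-06). Hnrnpm, which binds GU-rich RNA, fell by 0.61 (SE 0.076, adjusted p = 8.78e-07), and Hnrnpab by 0.53 (SE 0.051, adjusted p = 1.48e-08). Hnrnpd, which binds AU-rich elements, fell by 0.49 (SE 0.067, adjusted p = 3.11e-06), and Hnrnpk, which binds C-rich RNA, by 0.43 (SE 0.056, adjusted p = 1.63e-06). On the chosen probe sets none of these 5 genes had an E16.5 array that reached an earlier array. The same was true of Hnrnpa2b1, Hnrnpdl and Hnrnpu, whose changes were smaller (-0.26, -0.41 and -0.31). The other probe sets of Hnrnpk had differences of -0.51 and -0.43 relative to E12.5, untested, and their E16.5 and E12.5 arrays overlapped. Hnrnpf, which binds runs of G, Hnrnpul1 and Hnrnpll, a relative of Hnrnpl, fell by 0.51 (adjusted p = 0.000217), 0.42 (adjusted p = 0.000692) and 0.42 (adjusted p = 0.00244), with overlapping arrays. The other probe sets of Hnrnpf had larger differences, -0.585 and -0.958, untested, and their E16.5 and E12.5 arrays did not overlap.

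Hnrnpc, which binds runs of U, had the widest spread of the 49 genes at E16.5 (SD 0.676). It had 9.60 to 11.69 with a median of 11.34 at E16.5, against 11.32 to 11.99 with a median of 11.85 at E12.5, and the stages overlapped. Its change of -0.64 ± 0.22 (adjusted p = 0.0319) rested in part on E16.5 replicate 2, its lowest array, without which the change was -0.42 (adjusted p = 0.0423). The call was lost without E12.5 replicate 5 or 7 or E16.5 replicate 3, with an adjusted p of up to 0.0559. Without E16.5 replicates 1 to 4 together the change of Hnrnpc was -0.24 (adjusted p = 0.427), and without replicates 5 to 8 it was -1.05 (adjusted p = 0.00311).

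**Figure D3:**
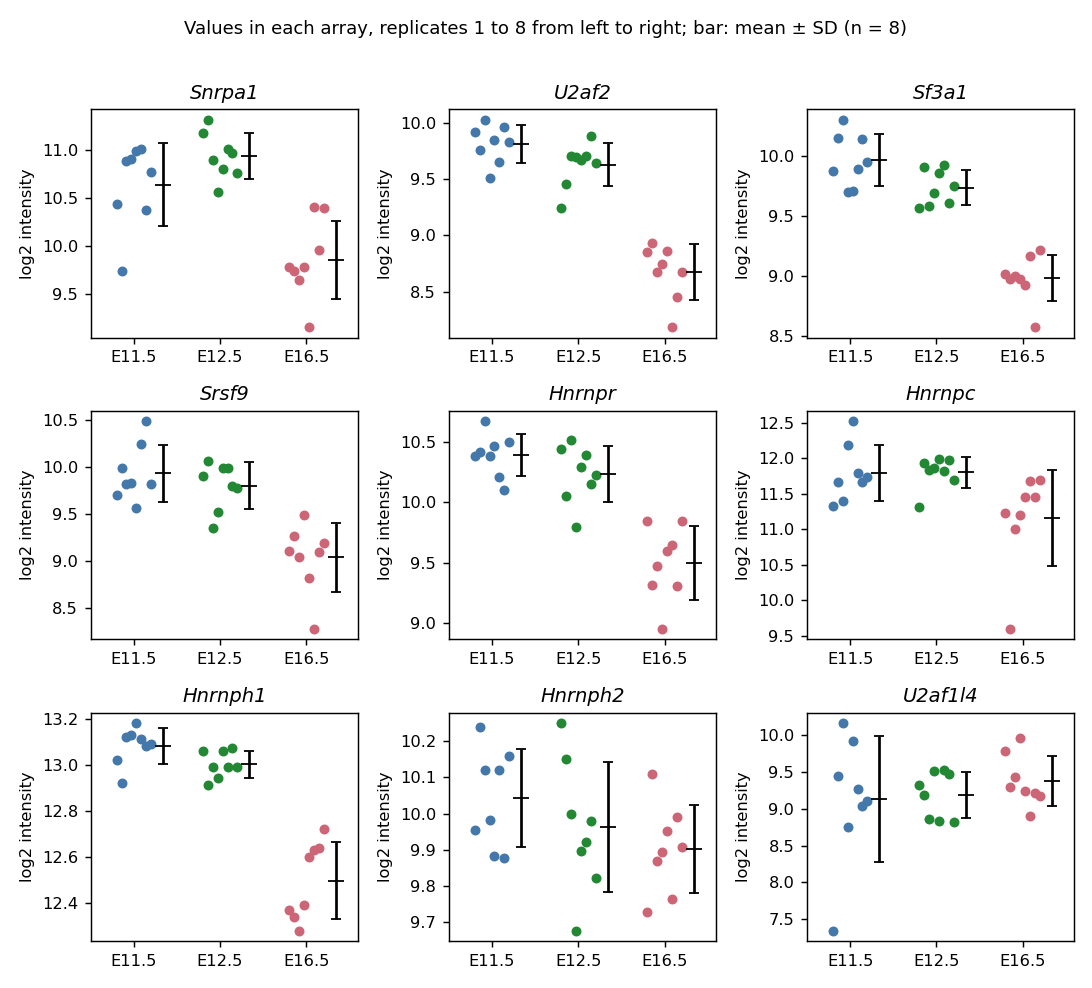
Log2 intensity (vertical axis) of 9 of the splicing factor genes in each array of the 3 stages (horizontal axis), with replicates 1 to 8 from left to right and a bar for the mean and SD of 8 arrays. The E16.5 arrays of U2af2, Sf3a1 and Hnrnph1 lie below all earlier arrays, Hnrnph2 and U2af1l4 overlap at all stages, and 1 E16.5 array of Hnrnpc stands at 9.60.

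For 17 of the 49 genes (34.7%) all 8 E16.5 arrays lay below all 16 arrays of E11.5 and E12.5, which was so for 544 of all genes (2.81%). They were Hnrnpa2b1, Hnrnpab, Hnrnpd, Hnrnpdl, Hnrnph1, Hnrnpk, Hnrnpl, Hnrnpm and Hnrnpu among the hnRNPs, Snrpa, Snrpd1, Snrpd3 and Snrpg among the snRNP proteins, Sf3a1 and Sf3b3, Srsf1 and U2af2. This holds for the chosen probe sets, and the other probe sets of Hnrnpk and Snrpg overlapped an earlier stage. Within a stage the 49 genes varied less than all genes at E11.5 and E12.5, and about as much at E16.5. Their median SD between arrays was 0.175, 0.118 and 0.189 at E11.5, E12.5 and E16.5. For all genes it was 0.215, 0.175 and 0.193.

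The 5 genes that did not pass between E12.5 and E16.5 were Hnrnph2, Hnrnpul2, Hnrnpa0, Sf3b6 and U2af1l4. Hnrnph2 had 9.73 to 10.11 with a median of 9.90 at E16.5, against 9.68 to 10.25 with a median of 9.95 at E12.5, a change of -0.06 ± 0.078 (adjusted p = 0.647). Hnrnpul2 had a change of -0.13 ± 0.082 (adjusted p = 0.293), and the dim Hnrnpa0, which binds AU-rich elements, one of -0.14 ± 0.096 (adjusted p = 0.345). In all 5 the stages overlapped. Hnrnpul2 passed when the arrays were quantile-normalised once more (-0.24, adjusted p = 0.0308).

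Hnrnph2 has a close relative in Hnrnph1, and both proteins bind runs of G. Hnrnph1 had 12.92 to 13.18 with a median of 13.10 at E11.5, 12.91 to 13.07 with a median of 12.99 at E12.5, and 12.28 to 12.72 with a median of 12.49 at E16.5. Its E16.5 arrays lay below all earlier ones, and it fell by 0.51 (SE 0.063, adjusted p = 9.14e-07) relative to E12.5. Whether paired genes changed unequally was asked of 13 pairs in the 3 comparisons, 39 tests in all. The value compared was the difference between both genes within each array. Among the pairs, Hnrnpr with Hnrnpc and Sf3b2 with Sf3b1 are not close relatives. Each test was an exact two-sided permutation test over the 12870 divisions of 16 arrays, where the smallest p possible is 0.000155. Hnrnph2 minus Hnrnph1 was the pair that passed. The difference was -3.29 to -2.68 at E11.5, -3.26 to -2.76 at E12.5 and -2.87 to -2.23 at E16.5, so that the stages overlapped. It rose by 0.44 relative to E12.5 and by 0.44 relative to E11.5 (exact permutation p = 0.000932, adjusted p = 0.0182 in both).

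The Hnrnph2 result did not hold under every setting. Over the mean of a gene's probe sets the difference rose by 0.47 relative to E12.5 (exact permutation test, adjusted p = 0.0242), and its change of 0.43 relative to E11.5 had an adjusted p of 0.0764. Without E16.5 replicates 1 to 4 the change relative to E12.5 was 0.29 (exact permutation test, adjusted p = 0.105), and without replicates 5 to 8 it was 0.60 (adjusted p = 0.0263). Probe sequences were not used here, so probes shared between such similar genes were not looked for. Of the other pairs, Snrpd3 with Snrpd1 and Srsf5 with Srsf6 came closest in 1 comparison each, both with an adjusted p of 0.0970 in an exact permutation test. U2af1l4 minus U2af1 had the largest change of any pair, 0.59 from E12.5 to E16.5, and did not pass (exact permutation test, adjusted p = 0.143).

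For 11 of the 49 genes the array carried several single-gene probe sets, 29 in all. Of the 18 that had not been chosen, 16 had a lower mean at E16.5 than at E12.5, untested, with changes of -0.96 to 0.03 and a median of -0.48. The exceptions were the third probe set of Srsf3, with a mean of 8.68 at E16.5 and 8.66 at E12.5, and the fifth of Snrpd2, with 5.69 at E16.5 and 5.67 at E12.5. Genes with several probe sets can include near-identical copies elsewhere in the genome, so values for Snrpd2, Srsf3 and the other 9 are uncertain in that respect.

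The comparison of E16.5 with E11.5 shares its E16.5 arrays with the one above. At E16.5, 43 of the 49 genes were lower than at E11.5 and 0 were higher, beside 19.6% of all genes lower, 13.8% higher and 33.5% in either direction. The median change was -0.46, beside -0.08 over all genes, and 20 of the 49 genes had E16.5 arrays all below those of E11.5, beside 3.86% of all genes. U2af2 was the gene that fell 2-fold or more, at 2.21-fold, while 1.95% of all genes fell by that much. Sf3a1 came next, with 8.57 to 9.22 and a median of 8.98 at E16.5, against 9.70 to 10.30 and a median of 9.92 at E11.5, and a change of -0.98 ± 0.095 (adjusted p = 9.08e-09). Srsf9 (-0.89 ± 0.15, adjusted p = 3.27e-05) and Hnrnpr (-0.89 ± 0.12, adjusted p = 1.72e-06) followed, and both had stages that did not overlap. Sf3a3, Snrpa1, Sf3b3, Hnrnpl, Snrpa and Sf3b4, the next in size, had changes between -0.79 and -0.74.

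By role, 15 of 17 hnRNP genes, 10 of 10 SR protein genes, 8 of 9 SF3a or SF3b genes, 9 of 10 snRNP genes and 1 of 3 U2AF genes were lower at E16.5 than at E11.5. Hnrnpul2, which had not passed against E12.5, was lower than at E11.5 by 0.25 (-0.25 ± 0.082, adjusted p = 0.0226), and lost the call without E16.5 replicate 4 or 7 (adjusted p of up to 0.0519) and without E16.5 replicates 1 to 4 together (-0.17, adjusted p = 0.245). The 6 genes that did not pass were Hnrnph2, Hnrnpa0, U2af1, U2af1l4, Sf3b6 and Snrpc. Snrpc lay just beyond the threshold (-0.37 ± 0.15, adjusted p = 0.0535), and it passed when E11.5 replicate 5 or 8 or E16.5 replicate 2, 4 or 5 was left out, and under 6 other settings. Over all settings the Snrpc change ran from -0.59 to -0.15. Its adjusted p reached 0.504, and 0.114 when a single array was left out. Hnrnpa0 passed without E11.5 replicate 4 (-0.27, adjusted p = 0.0216). Srsf4, at -0.28 ± 0.10 (adjusted p = 0.0345), lost its call without any one of 9 arrays, with an adjusted p of up to 0.0751. Hnrnpc (-0.62 ± 0.22, adjusted p = 0.0317) lost its call without E11.5 replicate 4 or 5 or E16.5 replicate 3 (up to 0.0730), and changed by -0.40 without E16.5 replicate 2 and by -0.22 without E16.5 replicates 1 to 4 (adjusted p = 0.393).

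Array by array, the median of the 49 genes relative to their E12.5 means was -0.05 to 0.09 at E11.5, -0.07 to 0.03 at E12.5 and -0.62 to -0.28 at E16.5, so that every E16.5 array stood below every earlier one. In each E16.5 array 35 to 44 of the 49 genes lay below all 8 E12.5 arrays, and in each E11.5 array 3 to 16 did. Over all genes the share below all 8 E12.5 arrays was 18.8% to 24.8% in the E16.5 arrays and 7.0% to 21.3% in the E11.5 arrays. Within E16.5, replicates 1 to 4 had medians of -0.62 to -0.56 and replicates 5 to 8 had -0.45 to -0.28, a split for which no label gives a reason. Between these sets 34 of the 49 genes were lower in replicates 1 to 4, with a median difference of -0.15, beside 0.01 over all genes. Without replicates 1 to 4, 36 of the 49 genes remained lower at E16.5 than at E12.5 by the test, and the calls of Hnrnpc, Hnrnpll, Sf3b1, Sf3b5, Snrpb2, Srsf11, Srsf5 and U2af1 were lost. Without replicates 5 to 8, 41 genes passed, and the calls of Snrpb, Snrpc and Srsf12 were lost. Relative to E11.5 the counts were 34, with the calls of Hnrnpc, Hnrnpf, Hnrnpll, Hnrnpul2, Sf3a2, Sf3b1, Sf3b5, Srsf11, Srsf4 and Srsf5 lost, and 40, with those of Sf3a2, Snrpb and Snrpd2 lost.

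Other genes moved with these values. Of 21 measured proliferation markers, 21 were lower at E16.5 than at E12.5, with a median change of -0.84, and their mean per array was 9.24 to 9.93 at E16.5, against 10.26 to 10.59 at E12.5. Within E16.5 that mean was 9.24 to 9.45 in replicates 1 to 4 and 9.61 to 9.93 in replicates 5 to 8, the same order as for the splicing factor genes. Other lists separated these replicates too: array means in replicates 1 to 4 and in replicates 5 to 8 were 12.79 to 12.96 and 12.36 to 12.65 for sarcomere genes, 8.999 to 9.344 and 8.29 to 8.65 for endothelial markers, and 7.58 to 8.17 and 8.30 to 8.94 for erythroid markers. Of 16 sarcomere genes, 16 were higher at E16.5, with a median change of 3.06 and array means of 12.36 to 12.96 at E16.5, against 8.08 to 11.42 at E12.5. Of 12 genes of fold mesenchyme 9 were lower and 1 was higher. Hepatocyte markers were higher in 15 of 17, endothelial markers in 8 of 10 and macrophage markers in 2 of 10. Neuronal markers were lower in 5 of 13 and erythroid markers in 3 of 8, while 2 stress genes of 11 were higher and 2 lower. The 3 erythroid genes were the globin genes Hbb-bh1, Hba-x and Hbb-y, with changes of -5.67, -4.8 and -4.21. The median change of the erythroid list was -0.15. Among all 19351 genes 15.6% were lower and 2223 were higher in this comparison. The macrophage and stress counts are close to that background. The part of cell cycle, tissue make-up or the unexplained E16.5 sets in the fall of the splicing factor genes was not tested.

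**Figure D4:**
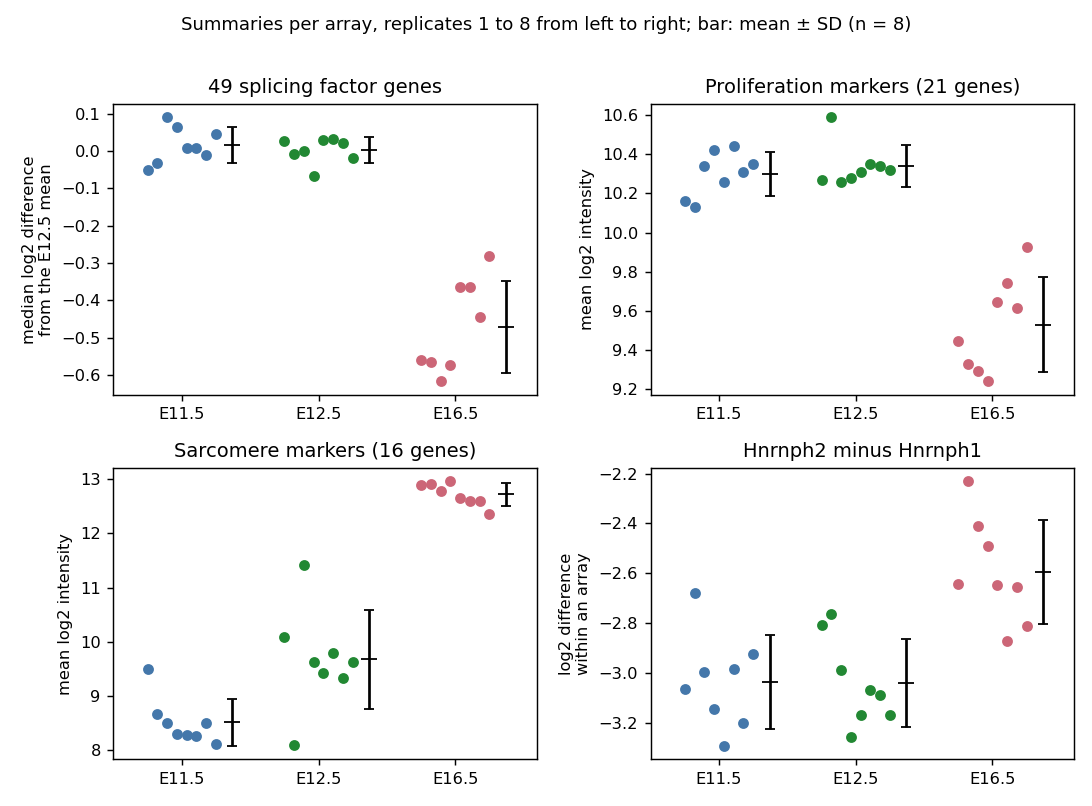
Values per array (points, replicates 1 to 8 from left to right, with a bar for the mean and SD of 8 arrays) at the 3 stages on the horizontal axis: the median log2 difference of the 49 genes from their E12.5 means, the mean log2 intensity of 21 proliferation and of 16 sarcomere markers, and the log2 difference between Hnrnph2 and Hnrnph1. The first panel runs from -0.62 to -0.28 at E16.5, against -0.07 to 0.03 at E12.5.

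Many splicing genes outside the rule were lower at E16.5 too. In 5 lists written from general knowledge, with 122 entries of which 116 were measured, 0 genes passed between E11.5 and E12.5. At E16.5, 73 (62.9%) were lower than at E12.5 and 3 were higher, with a median change of -0.39. Relative to E11.5, 66 (56.9%) were lower and 6 higher, with a median of -0.33. Of 23 measured early complex and branch site proteins 19 were lower than at E12.5 and 0 higher, and of 18 proteins of snRNP assembly and import 13 were lower and 0 higher. The counts were 19 lower and 2 higher of 34 tri-snRNP and other U snRNP proteins, and 17 lower and 0 higher of 31 Prp19 complex and late step proteins. Of 10 SR protein kinases and related genes 5 were lower and 1 was higher.

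Among the early proteins, Khdrbs1, the RNA-binding protein Sam68, had 9.45 to 10.50 with a median of 10.09 at E16.5, against 10.87 to 11.16 with a median of 11.06 at E12.5, and fell by 1.01 (SE 0.11, adjusted p = 1.53e-07). Ptbp1, which represses exons of differentiated cells and competes with U2AF for pyrimidine-rich RNA, had 9.26 to 10.02 with a median of 9.66 at E16.5, against 10.53 to 10.80 with a median of 10.62 at E12.5, and fell by 0.97 (SE 0.094, adjusted p = 1.6e-08). Neither gene's stages overlapped. Phf5a, which is built into SF3b beside Sf3b1 and Sf3b3, fell by 0.79, and Tra2b, a relative of the SR proteins, by 0.70. Smn1, whose product loads Sm proteins onto small nuclear RNA, fell by 0.93 (SE 0.20, adjusted p = 0.000821), and its partner genes Gemin6 and Gemin4 by 0.82 and 0.72. The calls of Gemin6 and Gemin4 were lost without E16.5 replicates 1 to 4 (adjusted p = 0.133 and 0.0568). Among tri-snRNP and other U snRNP proteins, Snrnp25 fell by 1.12, Eftud2, the GTPase of the U5 snRNP, by 0.87, and Lsm2 and Lsm8, subunits of the ring on U6 RNA, by 0.80 and 0.77. Lsm2 lost its call without E16.5 replicates 5 to 8 (adjusted p = 0.0525).

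The 3 genes that were higher at E16.5 than at E12.5 were Srpk3, Snrnp27 and Lsm6. Srpk3 encodes a kinase of SR proteins that is known from striated muscle. It had 6.96 to 7.84 with a median of 7.34 at E11.5, 7.11 to 7.93 with a median of 7.61 at E12.5, and 9.75 to 10.20 with a median of 10.09 at E16.5. The E16.5 arrays stood far above all earlier ones, and the gene rose by 2.40 (SE 0.12, adjusted p = 1.57e-13) relative to E12.5 and by 2.68 relative to E11.5. Its widely expressed relative Srpk1 moved the other way, with 10.17 to 11.12 and a median of 10.55 at E16.5, against 11.14 to 11.41 and a median of 11.24 at E12.5, and fell by 0.73 without overlap. Tnpo3, which carries SR proteins into the nucleus, and Prpf4b, a kinase of splicing factors, fell by 0.60 and 0.33 and lost their calls without E16.5 replicates 1 to 4 (adjusted p = 0.152 and 0.161). Snrnp27 was 0.41 higher (adjusted p = 0.0115) and Lsm6 0.33 higher (adjusted p = 0.0108). With either set of E16.5 replicates left out the change of Snrnp27 was still 0.41, with an adjusted p of up to 0.0709 on fewer arrays, and Lsm6 lost its call without replicates 5 to 8, over the mean of its probe sets, or after quantile normalisation once more (up to 0.119).

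**Figure D5:**
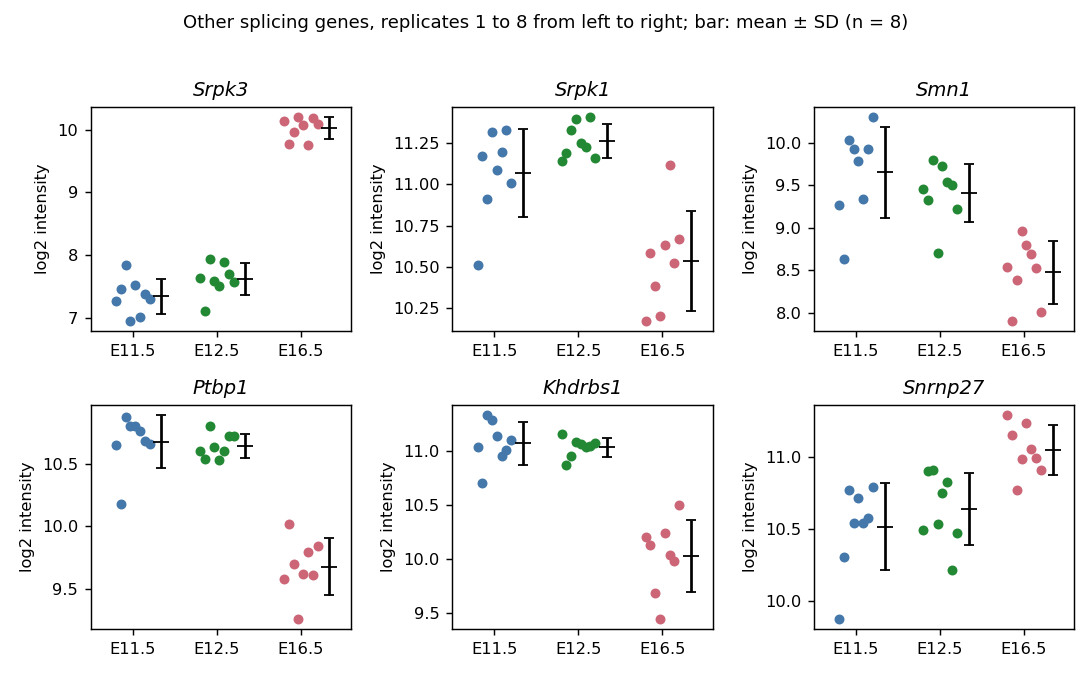
Log2 intensity (vertical axis) of 6 splicing genes outside the rule in each array of the 3 stages (horizontal axis), with replicates 1 to 8 from left to right and a bar for the mean and SD of 8 arrays. Srpk3 is at 9.75 to 10.20 at E16.5, against 7.11 to 7.93 at E12.5, while the E16.5 arrays of Srpk1, Ptbp1 and Khdrbs1 lie below all E12.5 arrays.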

How the data were processed

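The authors deposited log2 intensities, 1 per probe set and array. Per the submitters' processing notes, the tools were Affymetrix Expression Console 1.1, RMA and R 2.9.2, with no roles given; RMA corrects for background, quantile-normalises and summarises probes, and whether all 24 arrays were processed together is not given in the sources used here. That the scale is log2 follows from the values' range, since no source names it. Of 24200 probe sets, 20760 matched 1 gene, and the 1140 with several genes and 2300 with none were left out, which gave 19351 genes; for 804 of these the probe set with the highest mean was kept. Stages were compared with limma 3.58.1 in R 4.3.3 on all 24 arrays (1 coefficient per stage, no covariate, two-sided, Benjamini-Hochberg adjustment over all genes, threshold 0.05), a procedure also tested on simulated data. Exact permutation tests of pairs used Python 3.11.15 with scipy 1.17.1 and were adjusted over 39 tests. Arrays have no read depth, and their number, 8 a stage, limits the precision.

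All 49 genes could be named, with values for the 10 largest changes of each comparison, the extremes of each role and the pairs, and up to 4 changed genes of each other list. The genes and lists were chosen with earlier results of these data known. Replicate numbers recur in each stage, and the labels do not tie equal numbers together, so arrays were not paired. Alternatives were a fit of the compared stages only, the replicate block, 2 centrings, quantile normalisation again, leaving out the dimmest 25% of genes, the mean over probe sets, eBayes with trend and robust options, leaving out either E16.5 set and leaving out each array. For the pairs, leaving out single arrays or either E16.5 set was added after the data were seen.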

Additional observations from a re-analysis of the deposited data

Results flagged for a closer look

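Within each stage, each of the 49 splicing factor genes was checked for an array standing apart, by whether its gap to the nearest array took up more of the range of the 8 arrays than Dixon's critical value allows. This was so in 7 of 147 groups, and chance flags about 1 in 20. Hnrnpc, which binds runs of U, had 2 such arrays: E16.5 replicate 2 at 9.60, with the next array at 10.999, and E12.5 replicate 1 at 11.32, with the next at 11.7. Sf3a1, an SF3a subunit, was low in E16.5 replicate 7 at 8.57, with the next array at 8.92. Sf3a3, another subunit, was low in E11.5 replicate 8 at 9.76, with the next at 10.56. Sf3b6, which lies next to the branch site, was low in E11.5 replicate 1 at 7.64, with the next at 8.93. Among SR protein genes, Srsf6 was low in E12.5 replicate 2 at 10.57, with the next array at 10.97, and Srsf5 was high in E16.5 replicate 8 at 12.29, with the next at 12.1. The cause was not tested for any of them.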

How the results depend on the processing

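No gene of the 49 passed between E11.5 and E12.5 under any setting tried. The count of genes lower at E16.5 than at E12.5, 44, was 43 to 45 when single arrays were left out and 36 to 45 under the other settings; 43 of the 44 kept the call in every leave-one-out fit and 33 in every setting. Relative to E11.5 the count of 43 was 41 to 44 and 34 to 45, with 40 and 31 genes kept. With the replicate number as a block the counts were 0, 44 and 42, the call of Srsf4 relative to E11.5 being lost. Arrays of equal number did not deviate together: their correlations of deviations from the stage means ran from -0.281 to 0.093. Of 24 such pairs, 1 was the best match of its array.

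The median change from E12.5 to E16.5, -0.49, was -0.38 without E16.5 replicates 1 to 4, -0.57 without replicates 5 to 8, and -0.51 to -0.46 without single arrays. Relative to E11.5 the median of -0.46 was -0.37 and -0.56 without these sets, -0.56 after quantile normalisation again, and -0.49 to -0.43 without single arrays. The cause was not tested. The number of pair tests that passed, 2 of 39, was 1 over the mean of probe sets, 0 without E16.5 replicates 1 to 4, 3 without replicates 5 to 8, and 2 to 3 without single arrays. Signs turned for genes that had not passed: U2af1l4 was -0.057 relative to E12.5 and Sf3b6 0.078 relative to E11.5 without E16.5 replicates 1 to 4, and U2af1l4 relative to E11.5 was -0.0096 without E11.5 replicate 1 and up to 0.39 without other single arrays. Over all genes, 75 passed between E11.5 and E12.5, against 9 to 84 under other settings and 26 to 151 without single arrays. How many embryos gave the samples, and the section plane that goes with E16.5, limit all comparisons.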
